A study of Mus musculus with 54 samples.

Results

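CpG-rich distal peaks are accessible regions that have the base composition of a CpG island and are centred more than 1 kb from the annotated gene starts. They were taken from a list of 113737 peaks merged over assays of open chromatin in mouse embryonic stem cells. A member had to be an autosomal peak of 200 bp or more whose centre lay more than 1 kb from every transcription start site (TSS), with a GC content of at least 55% and a CpG observed/expected ratio of at least 0.6 over the whole peak. That ratio divides the number of CpG dinucleotides by the number expected from the C and G content. The rule found 1590 peaks among 83662 autosomal distal peaks of 200 bp or more, a share of 1.90% (Wilson 95% confidence interval, CI, 1.81 to 2.00%). The same limits on composition were met by 9491 of 22817 proximal peaks, those centred within 1 kb of a TSS, or 41.6% (CI 41.0 to 42.2%). Such intervals cover counting error only.

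Accessibility was measured by ATAC-seq, in which the transposase Tn5 inserts adapters into open DNA, in ZHBTc4 cells. In this single mouse embryonic stem (ES) cell line doxycycline (dox) shuts off Pou5f1, the gene of OCT4, and the cells carried the fusion mCherry-OCT4-AID, which auxin (indole-3-acetic acid, IAA) sends to degradation, and the fluorescent cell cycle reporter YPet-MD. The labels describe 54 samples in 24 groups, all given dox. In 22 of them cells had 26 hr of dox with no IAA or with 500 nM IAA for 2 hr and were sorted into EG1, LG1, S and SG2 phase, in 16 of them IAA was given or not for 2.5 hr and washed out for 4.5 hr before the same sort, with 31 hr of dox, and in 16 of them unsorted cells had 34 hr of dox with no IAA or with 500 nM IAA for 30 min or for 1, 2, 3, 4, 6 or 10 hr. The list gives only the position of each merged peak. It has no value for any sample, so depth is unknown and treatments, phases and times were not compared. A peak lay within 1 kb of a TSS at 7 of 7 marker genes of ES cells, which were Pou5f1, Sox2, Nanog, Esrrb, Klf4, Zfp42 and Tfcp2l1.

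CpG is rare in most of the mouse genome because methylated cytosines mutate to thymine over evolutionary time. CpG islands are the stretches that escaped this loss, usually because they stay unmethylated in the germ line, and most known islands lie at gene promoters. Islands away from annotated promoters, often called orphan islands, are known in vertebrate genomes, and in ES cells unmethylated islands at genes of developmental regulators are typical sites of Polycomb complexes.

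The 7 sequences that follow show what the rule selects. They are given 5′ to 3′ on the forward strand of GRCm38. In the first 5 the capitals mark each CpG.
Peak of 200 to 300 bp with the most CpG, chr1:46088824-46089079: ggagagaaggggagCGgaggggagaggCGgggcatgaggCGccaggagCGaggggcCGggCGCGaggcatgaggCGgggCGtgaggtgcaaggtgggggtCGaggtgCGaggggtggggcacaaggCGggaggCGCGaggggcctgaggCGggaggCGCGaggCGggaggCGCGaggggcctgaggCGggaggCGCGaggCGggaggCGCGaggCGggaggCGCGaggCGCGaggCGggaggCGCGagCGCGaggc
Peak of 200 to 300 bp closest to the CpG limit, chr19:10225119-10225331: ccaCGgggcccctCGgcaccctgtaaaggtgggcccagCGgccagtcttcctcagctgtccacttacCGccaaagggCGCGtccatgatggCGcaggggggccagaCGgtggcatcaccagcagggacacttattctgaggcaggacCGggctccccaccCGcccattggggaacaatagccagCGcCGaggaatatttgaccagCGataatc
GC-rich CpG-poor peak for comparison, chr10:76203905-76204160: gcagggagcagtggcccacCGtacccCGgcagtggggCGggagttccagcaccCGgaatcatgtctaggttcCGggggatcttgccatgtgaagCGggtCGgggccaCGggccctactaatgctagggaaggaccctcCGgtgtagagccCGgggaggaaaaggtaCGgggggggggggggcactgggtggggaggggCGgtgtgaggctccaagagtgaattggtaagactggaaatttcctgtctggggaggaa
Middle 200 bp of the widest peak, chr13:3359872-3360071: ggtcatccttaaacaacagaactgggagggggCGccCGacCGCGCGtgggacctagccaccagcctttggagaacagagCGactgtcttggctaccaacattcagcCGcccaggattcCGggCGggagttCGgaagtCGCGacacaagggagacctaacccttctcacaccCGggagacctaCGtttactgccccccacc
Peak in the Sox2 control region, chr3:34760023-34760236: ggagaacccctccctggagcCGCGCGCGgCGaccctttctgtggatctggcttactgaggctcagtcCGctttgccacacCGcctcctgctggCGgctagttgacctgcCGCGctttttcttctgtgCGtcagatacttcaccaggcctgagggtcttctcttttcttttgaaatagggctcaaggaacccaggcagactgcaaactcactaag
Peak with an NRF1 match, chr6:126643040-126643280, match in capitals: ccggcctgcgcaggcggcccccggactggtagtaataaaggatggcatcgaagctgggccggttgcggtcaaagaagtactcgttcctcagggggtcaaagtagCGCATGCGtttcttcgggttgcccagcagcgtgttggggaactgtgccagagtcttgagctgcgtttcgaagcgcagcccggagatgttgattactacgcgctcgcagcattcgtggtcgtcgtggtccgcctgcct
Peak with a REST half-site, chr7:96906288-96906527, match on the reverse strand in capitals: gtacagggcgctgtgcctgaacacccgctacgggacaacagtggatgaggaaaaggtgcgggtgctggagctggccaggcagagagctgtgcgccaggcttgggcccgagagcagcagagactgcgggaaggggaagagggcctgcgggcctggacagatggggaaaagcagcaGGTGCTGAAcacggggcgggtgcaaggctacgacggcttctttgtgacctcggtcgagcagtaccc

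The first of these lay in an intron of Dnah7b, 22214 bp from a TSS, and held 36 CpG in 256 bp, or 14.1 per 100 bp, at a GC content of 79.7%. The peak closest to the CpG limit lay in an intron of Myrf, 7697 bp from its TSS, and reached the ratio 0.600 with 13 CpG in 213 bp. The comparison peak is not a member. It had the same width as the first, 12 CpG and a ratio of 0.508, although its GC content was 64.5%. The widest peak, chr13:3358242-3361701, spanned 3460 bp with 235 CpG, of which 14 are in the stretch shown. The NRF1 peak was centred in coding sequence of Kcna1, which encodes a voltage-gated potassium channel, and its match lay 12.0 bp from the centre. The REST peak was centred in coding sequence of Tenm4, with the match 58.5 bp from the centre. The peak in the Sox2 control region is described with the annotated enhancers.

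CpG-rich distal peaks ranged in width from 200 to 3460 bp, with a median of 722.5 bp and quartiles of 402 and 1091 bp. Their median GC content was 61.6%, their median CpG observed/expected ratio 0.69, and they held a median of 47 CpG, or 6.54 per 100 bp. Together they covered 1292442 bp and held 91119 CpG. Peaks of 1 kb or wider numbered 481 (30.3%), and 395 were narrower than 400 bp. Under the stricter limits of 500 bp and a ratio of 0.65, which were chosen after the values were seen, 759 (47.7%) remained. These values were set in part by the rule and are a description.

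The composition of distal peaks ran without a break across both limits. Of 10401 distal peaks with a GC content of 55% or more, 15.3% (CI 14.6 to 16.0%) also had the CpG ratio, and 2898 distal peaks had the ratio at any GC content. On the GC limit, 2 members sat at the limit itself and the next at 55.02%, and the closest peaks outside at 54.99, 54.98 and 54.97%. On the CpG limit, the closest members were at 0.600, 0.60007 and 0.60008 and the closest peaks outside at 0.59982, 0.59956 and 0.59954. The narrowest members measured 200 bp, and 40 peaks narrower than that met the other limits, the 3 widest of them measuring 199 bp. The members nearest to a TSS lay 1001, 1002 and 1003 bp away, at Nr2f1, Hic1 and Erg. The outermost proximal peaks that met the GC and CpG limits lay 999, 998 and 989 bp away, at Lhx2, Irgq and Dyrk1a. In the RefSeq annotation a TSS lay 266 bp from the Hic1 member and 59 bp from the Erg member.

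**Figure D1:**
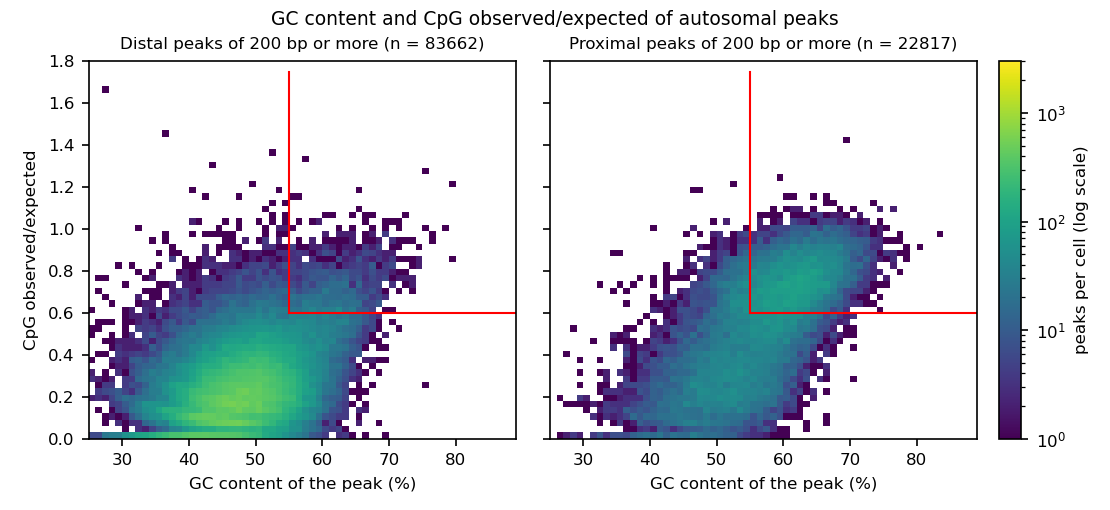
GC content (%, horizontal) against CpG observed/expected ratio (vertical) of autosomal distal and proximal peaks of 200 bp or more, as the number of peaks in each small cell on a log colour scale, with the limits of the rule in red. The 1590 CpG-rich distal peaks sit at the upper edge of 1 continuous cloud, whereas 41.6% of proximal peaks lie inside the limits.

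CpG density fell within a short distance of the peaks. Around the centres of CpG-rich distal peaks it averaged 8.29 CpG per 100 bp in the central 200 bp, 3.45 at 500 bp, 2.19 at 1 kb and 1.72 between 2 and 3 kb. GC-rich CpG-poor distal peaks, the 8811 peaks with the same GC limit and a CpG ratio under 0.6, started at 2.93 and reached 1.29 between 2 and 3 kb. CpG-rich proximal peaks started at 10.6 and reached 1.22 there, so the far flanks of the CpG-rich distal peaks held the most CpG of the 4 groups plotted. To ask whether the sequence next to the peaks differed as well, the median CpG ratio of the 1 kb on each side was computed per autosome. It averaged 0.323 ± 0.0252 (SD, n = 19 autosomes) beside CpG-rich distal peaks and 0.224 ± 0.00919 beside GC-rich CpG-poor peaks, higher on 19 of 19 autosomes (two-sided sign-flip permutation test with 100000 resamples, p = 1e-05, the smallest value these resamples can give, adjusted over 2 tests 1e-05). The flanks themselves reached a ratio of 0.6 at 129 members, or 8.11% (CI 6.87 to 9.56%), and at 0.556% of GC-rich CpG-poor peaks (CI 0.421 to 0.734%). Among CpG-rich proximal peaks the share was 7.32% (CI 6.82 to 7.86%), which overlaps that of the members.

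**Figure D2:**
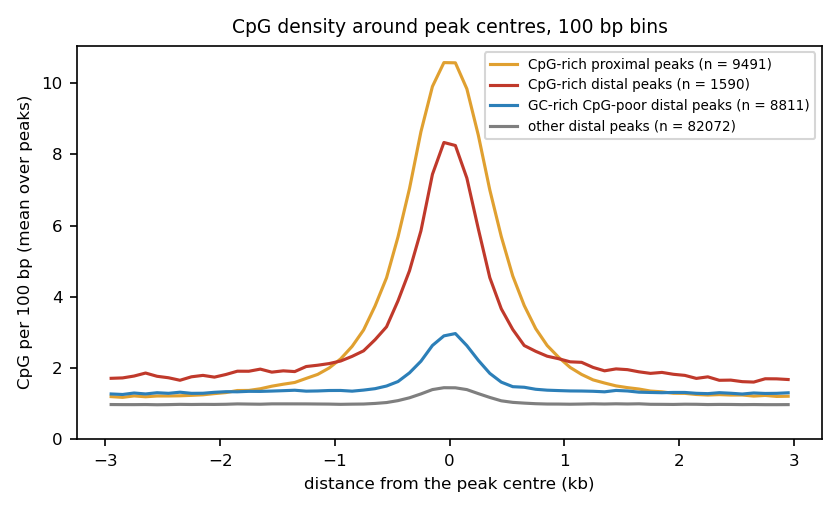
Mean number of CpG per 100 bp (vertical) in bins of 100 bp by distance from the peak centre in kb (horizontal), for 4 groups of peaks. CpG-rich distal peaks rise to 8.29 in the central 200 bp, below the 10.6 of CpG-rich proximal peaks, and stay at 1.72 between 2 and 3 kb.

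CpG-rich distal peaks were wide for distal peaks and narrow beside CpG-rich proximal peaks. Their median width per autosome averaged 732 ± 82.6 bp (SD, n = 19 autosomes), against 402 ± 23.7 bp for the other 82072 distal peaks and 430 ± 39.3 bp for GC-rich CpG-poor peaks. Both differences, of 330 ± 88.5 bp and 302 ± 91.6 bp, were positive on 19 of 19 autosomes (sign-flip permutation p = 1e-05, adjusted 1.27e-05 over the 14 tests of position and width against distal peaks). CpG-rich proximal peaks had a median width of 1277 ± 38.9 bp, and the distal ones were narrower by 546 ± 90.4 bp on average, on 19 of 19 autosomes (sign-flip permutation p = 1e-05, adjusted 1e-05 over 2 tests).

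Many of these peaks lay in exons, chiefly in coding sequence. Of the 1590, 561 were centred in coding sequence (35.3%, CI 33.0 to 37.7%), 95 in other exon sequence (5.97%), 381 in introns (24.0%) and 553 between genes (34.8%). The share centred in an exon averaged 40.8 ± 8.41% over the 19 autosomes, against 5.57 ± 1.16% of other distal peaks and 16.7 ± 3.17% of GC-rich CpG-poor peaks. The excess of 35.3 ± 7.82 and 24.1 ± 6.69 percentage points was present on 19 of 19 autosomes in both comparisons (sign-flip permutation p = 1e-05, adjusted 1.27e-05). Of CpG-rich proximal peaks, 64.2% were centred in an exon and 18.5% in coding sequence. The intergenic share of 34.8 ± 6.91% was lower than the 49.4 ± 4.14% of other distal peaks on 18 of 19 autosomes (adjusted p = 1.27e-05 by the sign-flip permutation test). It was lower than the 40.2 ± 7.97% of GC-rich CpG-poor peaks on 15 of 19 autosomes (sign-flip permutation test, adjusted p = 0.00233), a difference that did not pass when peaks had to be 400 bp wide and turned to 0.209 points when they were called distal only beyond 2500 bp. The coding peaks among them had a median width of 833 bp and a median CpG ratio of 0.717, against 648 bp and 0.668 for the intergenic ones.

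CpG-rich distal peaks were centred nearer to genes than other distal peaks. The median distance to the nearest TSS averaged 4985 ± 1009 bp over autosomes, against 13770 ± 2425 bp for other distal peaks and 9946 ± 2738 bp for GC-rich CpG-poor peaks, and was shorter on 19 of 19 autosomes in both comparisons (sign-flip permutation p = 1e-05, adjusted 1.27e-05). Of the members 485 (30.5%) lay 1 to 2.5 kb from a TSS, 341 (21.4%) up to 5 kb, 280 (17.6%) up to 10 kb, 388 (24.4%) up to 50 kb and 96 (6.04%) beyond 50 kb. A proximal peak was centred within 5 kb of 32.1 ± 6.21% of them, against 7.18 ± 1.32% of other distal peaks and 13.6 ± 3.20% of GC-rich CpG-poor peaks (higher on 19 of 19 autosomes in both, sign-flip permutation, adjusted p = 1.27e-05). The share with another distal peak within 5 kb was 41.6 ± 8.08%, against 43.4 ± 2.56% of other distal peaks, a difference of -1.72 ± 8.503 points that did not pass the test (sign-flip permutation, adjusted p = 0.403). Beside the 46.9 ± 3.82% of GC-rich CpG-poor peaks it was lower on 14 of 19 autosomes (adjusted p = 0.00362, sign-flip permutation), and this call was lost under 4 of the other settings tried.

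Since a missing TSS annotation would place a promoter among distal peaks, the members were also set against RefSeq on the same build, a check added after the data were seen. A RefSeq TSS of any kind lay within 1 kb of 202 members (12.7%, CI 11.2 to 14.4%) and a curated RefSeq TSS within 1 kb of 67 (4.21%, CI 3.33 to 5.32%). The shares among GC-rich CpG-poor peaks were 6.08% and 0.670%. A GENCODE TSS lay inside 13 members, in wide peaks whose centre was further than 1 kb away. With every peak within 1 kb of a RefSeq TSS counted as proximal, in all groups, each test of width, position and flanks kept its direction and its call.

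**Figure D3:**
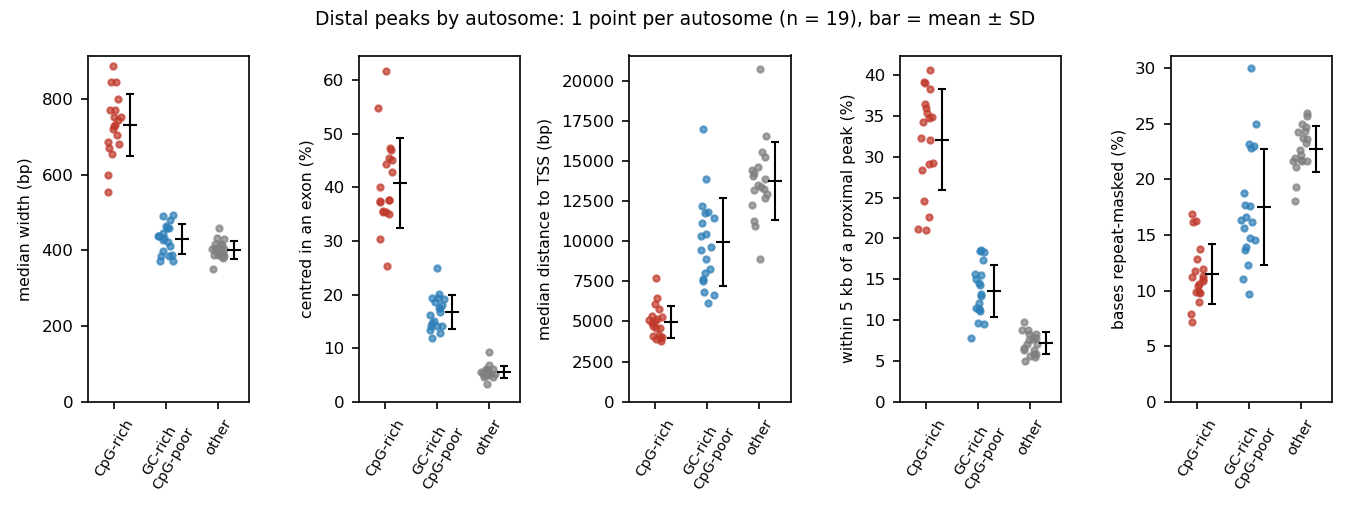
Median width (bp), share centred in an exon (%), median distance to the nearest TSS (bp), share within 5 kb of a proximal peak (%) and share of bases repeat-masked (%) of CpG-rich, GC-rich CpG-poor and other distal peaks, 1 point per autosome with the mean ± SD over 19 autosomes. CpG-rich peaks are higher than both other groups on every autosome in width, exon share and proximal neighbours, and lower in distance and repeats.

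CpG-rich distal peaks held fewer repeats than other distal peaks. Repeat-masked bases made up 11.5 ± 2.68% of the pooled sequence of CpG-rich distal peaks, against 22.8 ± 2.07% of other distal peaks and 17.5 ± 5.19% of GC-rich CpG-poor peaks, lower on 19 of 19 autosomes in both comparisons (sign-flip permutation, adjusted p = 1.27e-05). As a mean over single peaks the masked share was 15.5%, against 23.1% in other distal peaks and 17.8% in GC-rich CpG-poor peaks. Of the members 180 (11.3%, CI 9.86 to 12.97%) were masked over more than 50% of their length, with a median of 98.2%, against 15.3% of other distal peaks and 12.3% of GC-rich CpG-poor peaks. No base was masked in 388 members (24.4%), against 16.8% and 23.9% of these groups. The repeat members were narrower, with a median width of 348.5 bp, and lay a median of 25825.5 bp from a TSS, against 782 bp and 3928.5 bp for the other 1410. Of the 180, 70.6% were intergenic. As a mean over single peaks the masked share was 57.05% in the 96 members beyond 50 kb and 6.02% in those 1 to 2.5 kb from a TSS. The 5 members farthest from a TSS were masked over 80.7 to 100% of their length, and the farthest, chr15:45589753-45590146, lay 372576 bp from a TSS. The kind of repeat was not given in the sources used here.

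Repeat members also shared sequence with each other. Of all members, 126 (7.92%) had at least 50% of their stretches of 31 bp in common with another member, and 118 of these were among the 180 repeat members. The median share of such stretches was 61.5% in repeat members and 0% in the others, and 1314 members shared none. How reads were placed among such copies was not tested.

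To describe which binding sequences the peaks hold, 13 consensus sequences were matched on both strands. They were GGGCGG for the GC box bound by SP factors, GGGNGTGGC for KLF factors, CGCATGCG for NRF1, GGCGGGAA for E2F, CCGGAAGT for ETS factors, AAGATGGCG for YY1, TGCCGC for ZFP57, TTCAGCACC for the half-site of REST, GCCNNNGGC for AP-2, TCAAGGTCA for ESRRB, CNTTGTT for SOX factors and ATTTGCAT for OCT factors, without mismatch, and CTCF with up to 1 mismatch. Matches of different motifs can share bases, such as a GC box and an E2F match, and each motif was counted on its own. Of these, 6 always hold a CpG, and AP-2, KLF and SOX matches hold one where an N allows it, as a CTCF match can through its mismatch. Their numbers in comparison with GC-rich CpG-poor peaks were therefore in part set by the rule. A match is a stretch of letters and does not show binding.

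The 3 consensus sequences whose matches cannot hold a CpG were compared with GC-rich CpG-poor distal peaks by a test. ESRRB, a nuclear receptor of the naive stem cell network, matched 0.0115 ± 0.0109 times per kb against 0.0302 ± 0.0125 (lower on 18 of 19 autosomes, sign-flip permutation, adjusted p = 0.00039 over 26 tests). The REST half-site and OCT differed by 0.00437 ± 0.0207 and 0.0142 ± 0.0452 matches per kb (permutation, adjusted p = 0.385 and 0.258), and the direction for REST turned under 2 other settings. The median GC content was 61.6% in the members and 57.2% in GC-rich CpG-poor peaks, and its part in these differences was not tested. The other 4 that do not require a CpG are given as a description. CTCF, the architectural factor at chromatin loop anchors, matched 0.220 ± 0.0696 times per kb against 0.363 ± 0.0584, and SOX 0.275 ± 0.0606 times against 0.392 ± 0.0370. KLF matched 0.139 ± 0.0526 times per kb against 0.219 ± 0.0740, and AP-2 1.19 ± 0.110 times against 0.825 ± 0.106.

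The 6 consensus sequences that always hold a CpG had the following levels, given as a description beside GC-rich CpG-poor peaks. The GC box matched 2.32 ± 0.283 times per kb against 1.25 ± 0.104, and ZFP57, the zinc finger protein that keeps methylation at imprinted regions, 0.948 ± 0.146 against 0.370 ± 0.0585. E2F matched 0.0925 ± 0.0362 times per kb against 0.0512 ± 0.0159, NRF1 0.0252 ± 0.0208 against 0.0106 ± 0.00947 and ETS 0.0386 ± 0.0286 against 0.0258 ± 0.00802. YY1 matched 0.141 ± 0.0771 times per kb against 0.123 ± 0.0605. The direction turned under 4 other settings for YY1 and under 2 for ETS.

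Against CpG-rich proximal peaks 8 of 13 consensus sequences passed the test, 2 higher and 6 lower in the distal peaks. Proximal peaks were richer in CpG, with a median ratio of 0.760 against 0.691 and 7.26 against 6.54 CpG per 100 bp, and the part of this in the differences was not tested. The GC box matched 2.32 ± 0.283 times per kb in distal and 3.61 ± 0.112 times in proximal CpG-rich peaks (lower on 19 of 19 autosomes), ETS 0.0386 ± 0.0286 against 0.0899 ± 0.0171 times (lower on 18 of 19) (sign-flip permutation, adjusted p = 5.2e-05 for each). NRF1, at 0.0252 ± 0.0208 against 0.0441 ± 0.0122, and E2F, at 0.0925 ± 0.0362 against 0.122 ± 0.0154, were lower on 14 and 15 of 19 autosomes (permutation, adjusted p = 0.00423 and 0.00397). KLF, at 0.139 ± 0.0526 against 0.187 ± 0.0244, and SOX, at 0.275 ± 0.0606 against 0.325 ± 0.0308, were lower on 15 and 14 of 19 autosomes (permutation, adjusted p = 0.00167 and 0.00614), although SOX was higher in distal peaks when only the central 200 bp were searched. CTCF was higher, with 0.220 ± 0.0696 against 0.172 ± 0.0212 matches per kb (higher on 14 of 19, permutation, adjusted p = 0.0214), a call that was lost under 3 other limits of the rule. YY1 was higher as well, with 0.141 ± 0.0771 against 0.0462 ± 0.00969 matches per kb (higher on 18 of 19, permutation, adjusted p = 8.67e-05). ZFP57, AP-2, REST, ESRRB and OCT did not pass.

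The YY1 matches lay mostly in the repeat members. A match was present in 98 of the 180 repeat members (54.4%, CI 47.2 to 61.6%) and in 16 of the other 1410 (1.13%, CI 0.700 to 1.84%). With peaks masked over more than 50% left out of both groups, YY1 was lower in distal than in proximal CpG-rich peaks, with a difference of -0.0332 matches per kb (sign-flip permutation, adjusted p = 3.25e-05). The difference was also negative at a CpG ratio minimum of 0.75 (-0.0326), and over all settings tried the adjusted p of the permutation test ranged from 3.25e-05 to 0.0163. CTCF went the other way, with a match in 2 of the 180 repeat members (1.11%) and in 255 of the other 1410 (18.1%, CI 16.2 to 20.2%).

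Since wider peaks hold more matches, shares of peaks were compared over the central 200 bp. A GC box lay there in 40.9% of the members and 8.01% of all distal peaks, AP-2 in 23.3% and 7.76%, ZFP57 in 18.1% and 3.51%, and YY1 in 4.65% and 0.714%. SOX lay there in 4.78% of the members and 15.1% of all distal peaks, CTCF in 4.59% and 9.23%, ESRRB in 0.377% and 1.45% and OCT in 0.629% and 1.42%. KLF was at 3.08% and 2.90%, E2F at 2.08% and 0.583%, NRF1 at 0.818% and 0.108%, ETS at 0.755% and 0.363% and the REST half-site at 0.440% and 0.464%. All distal peaks had a median GC content of 47.8%, against 61.6% in the members, and GC content is part of the rule. In GC-rich CpG-poor peaks the central 200 bp held a GC box in 21.9%, AP-2 in 15.2%, ZFP57 in 7.79% and YY1 in 2.52%. SOX was there in 7.41% of these peaks, CTCF in 7.96%, KLF in 4.57%, ESRRB in 0.670% (CI 0.520 to 0.863%) and OCT in 0.465% (CI 0.343 to 0.631%). E2F was in 1.10%, NRF1 in 0.216%, ETS in 0.545% and the REST half-site in 0.363%. For ESRRB and OCT the intervals overlapped those of the members, 0.173 to 0.821% and 0.342 to 1.15%. They also overlapped for ETS (0.432 to 1.31% in the members, 0.411 to 0.721% in GC-rich CpG-poor peaks) and the REST half-site (0.213 to 0.906% and 0.257 to 0.512%). The shares are a description. The composite OCT4::SOX2 motif, with up to 2 mismatches, was found in 5 of the 1590 peaks (0.314%, CI 0.134 to 0.734%), against 0.272% of other distal peaks (CI 0.238 to 0.310%) and 0.0340% of GC-rich CpG-poor peaks. In the central 200 bp it was found in 1 member (0.0629%), against 94 of all 83662 distal peaks (0.112%). The 5 members with a match lay nearest to Slc52a3, Peg12, Nr2f2, Dll1 and Wnt8b.

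**Figure D4:**
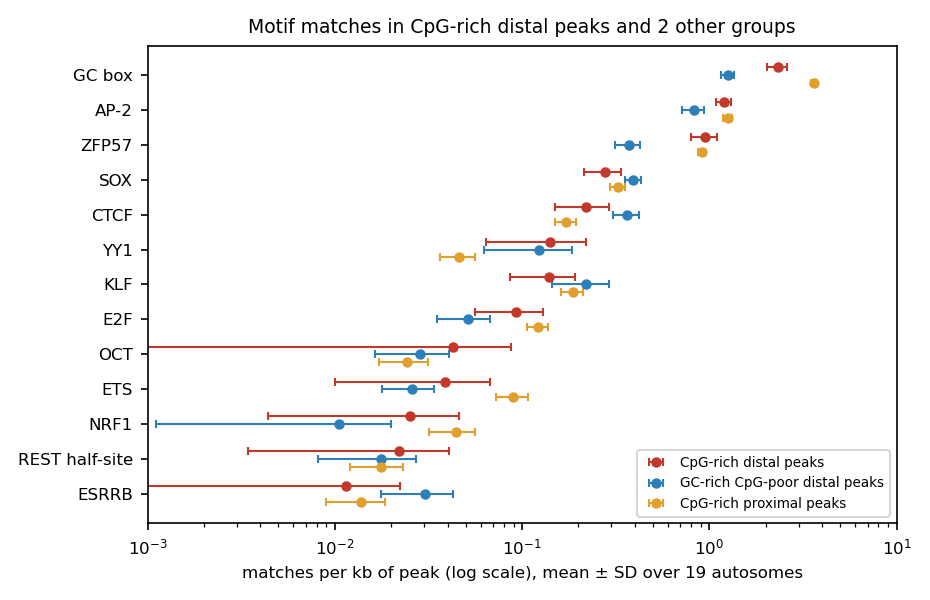
Matches per kb of peak (horizontal, log scale) of 13 consensus sequences in CpG-rich distal, GC-rich CpG-poor distal and CpG-rich proximal peaks, as the mean ± SD over 19 autosomes, with bars that reach the left edge where the SD is close to the mean or above it. The GC box lies at 2.32 in CpG-rich distal peaks, between 1.25 and 3.61 in the other groups, and YY1 stands apart from proximal peaks through the repeat members.

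CpG-rich distal peaks were frequent near genes of developmental regulators. Of 20807 autosomal protein-coding genes, 13.9% had such a peak within 50 kb of a TSS. The share was 46 of 65 (70.8%, CI 58.8 to 80.4%) for homeobox and paired-box genes, which encode transcription factors that pattern the embryo. It was 36 of 58 (62.1%, CI 49.2 to 73.4%) for other developmental transcription factors and 17 of 41 (41.5%, CI 27.8 to 56.6%) for signalling ligands. Without members within 2500 bp of any TSS the shares of these 3 lists were 53.8%, 41.4% and 31.7%, against 9.31% of all autosomal protein-coding genes. The lists were drawn up with earlier results of these data known and genes of a cluster share peaks, so these shares are a description without a test. With each peak counted once, 149 of the 1590 (9.37%, CI 8.03 to 10.9%) lay within 50 kb of the 164 genes of these 3 lists, against 1.02% of other distal peaks, 2.77% of GC-rich CpG-poor peaks and 3.22% of CpG-rich proximal peaks.

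Genes of pluripotency factors had a CpG-rich distal peak in 2 of 12 cases (16.7%, CI 4.70 to 44.8%), which were Klf4 and Tbx3, and imprinted genes in 6 of 29 (20.7%, CI 9.85 to 38.4%). Ribosomal protein genes, as a housekeeping list, had it in 3 of 30 (10.0%), and olfactory receptor genes in 52 of 1127 (4.61%, CI 3.54 to 6.00%). Clustered protocadherin genes, cell surface proteins of neurons, had it in 9 of 13 (69.2%, CI 42.4 to 87.3%), and in 0 of 13 once peaks within 2500 bp of any TSS were left out. Protein-coding genes with a CpG-rich proximal peak at a TSS were at 17.6%. GC-rich CpG-poor peaks lay within 50 kb of 40.5% of protein-coding genes, 73.8% of homeobox and paired-box genes, 78.0% of signalling ligands, 66.7% of pluripotency factors and 70.0% of ribosomal protein genes.

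**Figure D5:**
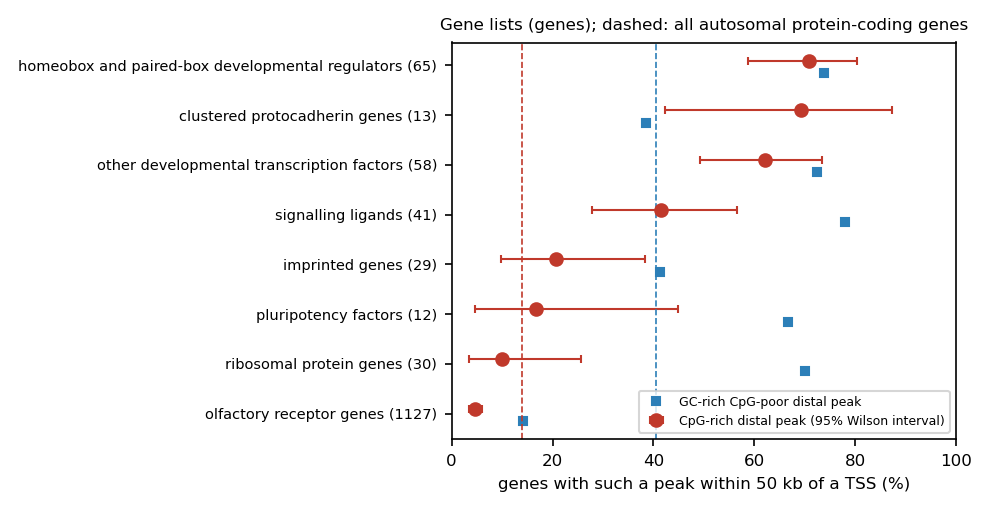
Share of genes in 8 lists (%, horizontal; number of genes in brackets) with a CpG-rich distal peak (circles, 95% Wilson interval) or a GC-rich CpG-poor distal peak (squares) within 50 kb of a TSS, with dashed lines at the shares of all autosomal protein-coding genes. Homeobox genes reach 70.8% for CpG-rich peaks against a background of 13.9%, and ribosomal protein genes 10.0%.

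Within the homeobox list the count of CpG-rich distal peaks within 50 kb ranged from 0 to 5. Lhx5, a LIM homeobox gene of the forebrain, had 5, and Hoxd9 and Nkx2-3 had 4 each. Barhl2, Cdx2, Dlx2, Hoxa13, Hoxb1, Hoxd13, Msx1, Pax2, Pax3 and Pax7 had 3 each. Otx2, Pax6, Irx1 and Nkx2-2 were among the 19 genes with 0. Of the other developmental factors Tbx2 had 4, and Gata4, Neurod2 and Tbx4 had 3 each, while Sox17, Gata6, Eomes and T had 0. Among ligands the neighbours Wnt1 and Wnt10b had 4 each and the Notch ligand Dll4 had 3, while Nodal, Lefty1, Lefty2 and Fgf4 had 0. The protocadherin Pcdha4 had 5. Among imprinted genes Cdkn1c, an inhibitor of cell cycle kinases, had 3 and Gnas and its antisense transcript Nespas had 2 each.

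By nearest gene, the 1590 peaks were assigned to 1304 protein-coding genes. For 1086 of these it was a single peak, and 45 genes had 3 or more, with 158 peaks in all. Lhx5 led with 6 peaks, followed by Casz1, Cbx8, Lbx1, Pax2, Sall1 and Uncx with 5 each. Ebf3, Gse1, Nfix, Nkx2-3, Nr2f2, Otp, Pou3f3 and Tbr1 had 4 each, and 30 genes had 3, of which the first by symbol were 1700001O22Rik, Arhgap23, BC107364, Barhl2 and Barx1. Lbx1, Uncx, Nkx2-3, Otp, Pou3f3, Barhl2 and Barx1 encode homeodomain proteins, Casz1, Sall1 and Ebf3 zinc finger or helix-loop-helix regulators of differentiation, Tbr1 a T-box factor of the cortex, and Cbx8 a subunit of a Polycomb complex.

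Around Lhx5 (chr5:120431699-120441223, plus strand) the 6 peaks measured 266 to 666 bp, with CpG ratios of 0.628 to 0.892. The nearest, chr5:120435254-120435519, was centred in coding sequence with 20 CpG, and 2 of the 6 were exonic. A further 2 lay upstream at 4234 and 7397 bp, and the outermost at 127655 bp. The 3 peaks downstream of the Lhx5 TSS, 2 exonic and 1 in an intron, held 7.52 to 7.81 CpG per 100 bp, and the 3 upstream 5.02 to 5.41.

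The peaks nearest to Cbx8 (chr11:119036305-119040969, minus strand) were all intergenic, at 5608 to 17666 bp from its TSS and 225 to 1005 bp wide. The peaks nearest to Pax2 (chr19:44756045-44837871, plus strand), a paired-box gene of kidney and eye, were intergenic too and lay upstream at 9293 to 83828 bp, with CpG ratios of 0.630 to 0.815. RefSeq has a TSS 151 bp from the centre of the peak at 9293 bp and 200 bp from that of the peak at 83828 bp. Around Sall1 (chr8:89027235-89044162, minus strand) 3 peaks lay in introns at 1026, 2415 and 2876 bp, the widest of them 2303 bp with 207 CpG. RefSeq has a TSS at 274, 504 and 43 bp from the centres of these 3. The outermost, chr8:89272440-89272762, lay 228439 bp away and overlapped an annotated enhancer. Around Uncx (chr5:139543494-139548179, plus strand) the widest peak, of 1590 bp with 144 CpG, was centred in coding sequence, and the others were 349 to 607 bp wide.

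Near Lbx1 (chr19:45232684-45235812, minus strand) a peak of 272 bp reached a CpG ratio of 1.07 with 33 CpG, the highest ratio among the 5. Near Casz1 (chr4:148804429-148954889, plus strand) the peaks ranged from 223 to 1549 bp, and lay 1398 to 61229 bp from a TSS of Casz1. The exonic one, chr4:148951523-148953010, was centred 55 bp from a RefSeq TSS. Of all members, 188 (11.8%) had another member within 5 kb and 550 (34.6%) within 50 kb, and the rest had none.

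The 5 widest peaks each reached over an annotated TSS. After the widest, near the start of the pseudogene Gm16505, came chr7:36695422-36698741 with 3320 bp and 291 CpG at Tshz3, a zinc finger gene. The third, chr18:9211752-9215015 with 3264 bp, was centred in coding sequence of Fzd8, a Wnt receptor. The fourth, of 3005 bp, lay at the pseudogene Gm21321 on chromosome 10, and the fifth, of 2855 bp, was centred in coding sequence of Irf2bpl. Their centres lay 1036 to 1221 bp from a TSS, which was less than the distance from centre to edge, and all 5 are among the 13 members with a GENCODE TSS inside. The widest and the fourth had sequence in common, amounting to 7.76% and 8.94% of their stretches of 31 bp.

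The highest CpG ratio at 400 bp or more was 1.28, in chr11:82930434-82933029, an intron peak near Unc45b with 388 CpG in 2596 bp and no masked base. The next were 1.10 in coding sequence of Otud7a, 1.07 in an intron of Filip1l, 1.06 in coding sequence near Dctpp1 and 1.05 in coding sequence near Kcna7. The densest peak, chr8:71476197-71476912, held 15.5 CpG per 100 bp at a GC content of 78.5% and was centred in coding sequence near Dda1. It was followed by the Unc45b peak with 14.9, a peak near Zswim6 with 14.1, one at Srrm3 with 13.9 and one in Arhgap23 with 13.2 CpG per 100 bp. RefSeq has a TSS 136 bp from the centre of the Arhgap23 peak and 755 bp from that of the Kcna7 peak. Ratios above 1 mean more CpG than the base content predicts.

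A small number of members coincided with enhancers that RefSeq annotates from published experiments. These numbered 10 of 1590 (0.629%, CI 0.342 to 1.15%), against 0.403% (CI 0.362 to 0.449%) of other distal peaks and 1.18% (CI 0.975 to 1.43%) of GC-rich CpG-poor peaks. RefSeq lists enhancers that were studied, so these shares depend on what was tested.

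Among the 10, 2 are annotated for ES cells. The peak chr3:34760023-34760236, shown above, lay within the Sox2 control region, the distal enhancer that drives Sox2 in ES cells, at 109725 bp from the Sox2 TSS. It was small and near both limits, with 214 bp, a GC content of 57.5% and a CpG ratio of 0.629, and its 11 CpG were spread unevenly, with a run of CG repeats near the left end. The peak chr6:122764485-122765419 of 935 bp, with a GC content of 56.5% and a ratio of 0.720, overlapped a fragment annotated to activate the Nanog promoter. Neither is within 50 kb of the TSS of Sox2 or Nanog, and the counts for the pluripotency list therefore leave them out.

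The other 8 are annotated in embryonic tissues or given without a tissue. They lay nearest to Pax3, Msx1, Fosb, Msx3, Sall1, Hmga2, Tbx2 and Nkx2-5. The peak nearest to Msx1, chr5:37826681-37827471, lay 2493 bp from its TSS and overlapped an element active in limb, face, hindbrain and other tissues. The peak nearest to Nkx2-5, a homeobox gene of the heart, lay 5392 bp away, overlapped an element active in heart and spanned 1419 bp with a CpG ratio of 0.771. The peak nearest to Tbx2, chr11:85829226-85830336, lay 2770 bp away and overlapped an element of the atrioventricular canal and outflow tract. Their CpG ratios ranged from 0.629 to 0.928, the highest at the Sall1 peak.

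By chromosome, the number of CpG-rich distal peaks ranged from 33 on chromosome 16 to 164 on chromosome 11, with a median of 69. Per Mb of sequence outside gaps this was 0.347 on chromosome 16 and 1.38 on chromosome 11, and chromosome 19 came second with 1.07. As a share of distal peaks it ranged from 1.18% on chromosome 3 to 3.44% on chromosome 11, with chromosome 19 at 3.37% and chromosome 7 at 3.11%. Across the 19 autosomes the number per Mb ran with that of CpG-rich proximal peaks (Pearson r = 0.918, Spearman rho = 0.798) more closely than with that of all distal peaks (r = 0.414). These are descriptions of 19 chromosomes that share gene density and base composition.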

How the data were processed

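Per the deposited list and the study's methods, the authors aligned ATAC-seq reads to GRCm38 with STAR 2.6.1c, removed duplicates with Picard, called peaks with MACS2 2.1.1.20160309 and merged them over the dox-treated experiments with BEDTools. The deposited values are start and end positions, with no counts or signal. The methods do not say if each library had its own peak calls before merging. The authors describe the removal of peaks over 5 kb, of input peaks and of blacklisted regions, yet 10 autosomal peaks exceed 5 kb, none of them a member. Whether members, the repeat ones among them, include input peaks or blacklisted regions was not tested.

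Sequence and repeat masking came from GRCm38.p6, TSSs and exons from GENCODE M21, and RefSeq annotation from the same build. Positions are given as a genome browser counts them. Medians or shares per autosome were compared by a two-sided sign-flip permutation test with 100000 resamples, adjusted by the Benjamini-Hochberg method within families of 14, 26 and 2 tests at a threshold of 0.05. Python 3.11.15, numpy 2.4.6, scipy 1.17.1 and pandas 2.3.3 were used. The tests were checked on simulated data.

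The members and gene lists were chosen with earlier results of these data known. Named genes were the 20 protein-coding genes nearest to most members, with ties taken by symbol, and list genes with 5 or more within 50 kb. Named peaks were the 5 widest, the 5 with the highest CpG ratio and the 5 densest at 400 bp or more, the 5 farthest from a TSS, and 3 on each side of each limit. Printed sequences were peaks of 200 to 300 bp chosen by CpG content or a match close to the centre, outside UTRs and chromosome 18 and masked over at most 50%, and the middle of the widest peak. No such peak had a CTCF match without mismatch. List genes named with fewer than 5 peaks, the RefSeq elements and the Sox2 sequence were chosen after their values were seen.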

Additional observations from a re-analysis of the deposited data

Results flagged for a closer look

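On the X chromosome, which the rule leaves out, 54 of 1259 distal peaks of 200 bp or more met the same limits of GC and CpG content, or 4.29% (Wilson 95% CI 3.302 to 5.55%). This signal lies in data that no comparison used, and the share is higher than the highest share of an autosome, 3.44% on chromosome 11. The Y chromosome had 5 such peaks among 43.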

How the results depend on the processing

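No paired analysis was possible because the list holds no value for any sample. Of 200 alternative values for the tests of width, position and flanks, 192 kept their direction and call. Of 390 for single motifs 338 did, 19 no longer passed, 13 newly passed and 20 turned. The number of CpG-rich distal peaks fell to 1019 at a GC minimum of 60% and to 497 at a CpG ratio of 0.75. The share with another distal peak within 5 kb, compared with other distal peaks, turned to 0.454 points at a distal limit of 500 bp and to 1.44 at a CpG ratio of 0.75. Compared with GC-rich CpG-poor peaks it no longer passed at 500 bp (-3.51), at 400 bp width (-3.58), at 60% GC (-1.44) and at a ratio of 0.75 (-1.34). The intergenic share against GC-rich CpG-poor peaks did not pass at a width of 400 bp (-5.05 points) and turned to 0.209 points at 2500 bp.

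Against GC-rich CpG-poor peaks, YY1 turned to -0.0183 matches per kb at 500 bp, -0.0363 at 400 bp width, -0.206 at 60% GC and -0.111 at a ratio of 0.75. REST turned to -9.7e-05 and -0.000399 under the first 2 of these, and ETS to -0.00783 and -0.00125 under the last 2. Against CpG-rich proximal peaks, AP-2 turned to 0.0180 at 500 bp and 0.0186 at a ratio of 0.75, and YY1 to -0.0326 at that ratio and -0.0332 without peaks masked over 50%. ZFP57 turned to -0.0993 at 2500 bp and ESRRB to 9.39e-05 at 60% GC. In the central 200 bp ZFP57 turned to -0.334 matches per kb (-5.97 points as a share of peaks), ESRRB to 0.00864 (0.173 points) and SOX to 0.0754 (1.19 points). At a ratio of 0.75, 5 of 13 motifs passed in place of 8. The cause was not tested.

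Within 20 kb, 18 olfactory receptor genes, 1 ribosomal protein gene, 1628 protein-coding genes (7.82%) and 970 with a CpG-rich proximal peak had a member, and without members within 2500 bp of a TSS 0 protocadherin genes did. Leaving out each autosome in turn changed no call but that of AP-2 against proximal peaks, which passed without chromosome 7 or 16. Its difference ranged from -0.0790 matches per kb without chromosome 16 to -0.0511 without chromosome 1, where it did not pass.

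Depth is unknown, so absence from the list does not show that a region was closed.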
